A study of Mus musculus with 194 samples.

Results

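The ependymal cilia genes described here are 7 of the 19363 genes counted: Ccdc153, Tmem212, Ak7, Morn1, Foxj1, Rsph1 and Dynlrb2. They were chosen by measured values of these same libraries, since Ccdc153 and Morn1 in the nucleus accumbens, Ak7 in the dorsal striatum and Tmem212 in the amygdala stood out between cocaine-naive and abstinent mice at 0 hr. Those 0 hr values are therefore given as a description, and experiences were tested at 1 to 4 hr, on other mice. These mice came from the same cohorts and runs as the 0 hr mice. A difference between cohorts or runs at 0 hr would recur at 1 to 4 hr, so these tests are not independent of the choice. The 0 hr mice do enter the comparisons of structures, the correlations, the second libraries and, as the baseline, the time courses, so tests of structures, correlations and the comparison of second libraries are also given without them, and the time courses of the NAc, DS and Amy are not independent of the choice.

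Ependymal cells form a single layer that lines the cerebral ventricles, and their beating cilia move cerebrospinal fluid. The axoneme of such a cilium holds outer microtubule doublets around a central pair, with dynein arms as motors and with radial spokes and a nexin-dynein regulatory complex that control the beat. The forkhead factor Foxj1, together with RFX factors, switches on the genes for these parts in cells that make motile cilia. The lateral ventricle borders the striatum, and the third ventricle borders the hypothalamus, so a block of tissue cut near a ventricle can carry some of its lining.

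Transcripts were counted by 3′-RNA-seq in male C57BL/6OLAHSD mice, 6 to 7 weeks old on arrival. Cocaine (20 mg/kg, i.p.) was given after a habituation phase with saline injections, and the 0 hr mice were taken from the home cage. Acute mice received cocaine for the first time, and repeated mice (labelled Chronic) had received 4 earlier daily doses. Challenge mice received cocaine after 5 earlier daily doses and 21 days of abstinence. Tissue was taken 1, 2 or 4 hr after cocaine, and 0 hr mice received none on that day, so that they were naive, on the day after the fourth dose, or abstinent, in that order. Limbic cortex (LCtx, 28 mice), nucleus accumbens (NAc, 36), dorsal striatum (DS, 48), amygdala (Amy, 31) and lateral hypothalamus (LH, 23) were dissected from coronal slices of 48 mice, 16 acute, 17 repeated and 15 challenge, in 60 groups of 1 to 5 mice. Each experience came from its own cohort of mice (exp20 acute, exp18 challenge, exp17 repeated, with exp16 as a second repeated cohort in the DS alone), so experience and cohort cannot be told apart in any comparison of experiences.

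Libraries held 1193306 to 10367769 counts (median 3296647), none were identical, and libraries of 1 group and run differed by more than sampling noise. Values below are counts per 1000000 counts of the library (CPM). A count of 0 allows a level of up to 3 counts, which is 2.51 CPM in the shallowest and 0.289 CPM in the deepest library. These limits cover counting error only. Because reads come from the 3′ end, CPM is not divided by gene length and levels of different genes are not compared. In bulk tissue, fewer cells of a type and less RNA per cell cannot be told apart. Of marker genes, Penk of striatal projection neurons was 3720 to 5480 CPM in the DS, 2410 to 3950 CPM in NAc libraries and at most 1130 elsewhere, Hcrt was 4160 to 7640 CPM in the LH, and Slc17a7 of excitatory neurons was 797 to 1580 CPM in the LCtx and 436 to 1220 in the Amy, for which no other marker was used. The lowest LCtx value belongs to 1 library that stood apart and is described with the time courses.

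The 7 genes lie on different chromosomes of the mouse genome (GRCm38, GENCODE M21). Foxj1, the transcription factor, is on chromosome 11 (116330704 to 116335399, minus strand). Rsph1, a radial spoke head protein, is on chromosome 17 (31255019 to 31277383, minus) and overlaps an antisense gene whose reads could not be told apart if counting ignored strand. Dynlrb2, a dynein light chain, is on chromosome 8 (116504974 to 116515915, plus), and Ak7, an axonemal adenylate kinase, on chromosome 12 (105705976 to 105782447, plus). Ccdc153, a coiled-coil protein, is on chromosome 9 (44240676 to 44247306, plus), Tmem212, a membrane protein, on chromosome 3 (27866066 to 27896368, minus), and Morn1, a MORN-repeat protein, on chromosome 4 (155086577 to 155145505, plus).

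The promoters of 5 of the 7 were in the RefSeq table (GRCm38.p6), which had no entry for Foxj1 or Rsph1. A stretch of 100 bases of each is shown because it holds the letters of a motif read by a factor of the cilia program, written in capitals: TGTTTA (a forkhead core, reverse TAAACA) or GTTGCC (the shorter arm of an X-box of RFX factors, reverse GGCAAC).

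Tmem212, chr3:27896369-27896468, minus strand: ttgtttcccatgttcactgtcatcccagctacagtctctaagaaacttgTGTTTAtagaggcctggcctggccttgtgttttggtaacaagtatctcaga

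Ak7, chr12:105705804-105705903, plus strand: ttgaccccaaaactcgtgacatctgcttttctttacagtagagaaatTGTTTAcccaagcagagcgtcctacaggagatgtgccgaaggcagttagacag

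Ccdc153, chr9:44240478-44240577, plus strand: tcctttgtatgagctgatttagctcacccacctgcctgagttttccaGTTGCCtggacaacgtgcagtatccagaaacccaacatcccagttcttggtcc

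Morn1, chr4:155086477-155086576, plus strand: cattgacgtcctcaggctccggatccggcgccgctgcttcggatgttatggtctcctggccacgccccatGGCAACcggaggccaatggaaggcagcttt

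Dynlrb2, chr8:116504874-116504973, plus strand: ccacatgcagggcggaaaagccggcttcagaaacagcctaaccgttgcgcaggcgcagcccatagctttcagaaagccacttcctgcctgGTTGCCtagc

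Searched on both strands in the 250 bases before the start, TGTTTA was found in Tmem212 (51 bases before the RefSeq start) and Ak7 (131 bases), 2 of the 5. The same letters occurred in 13.5% of the 27025 promoters of that length. GTTGCC was found in Ccdc153 (152 bases before the start), Morn1 (30 bases, on the minus strand) and Dynlrb2 (51 bases), 3 of the 5, and in 11.8% of those genes. One or the other was found in 5 of 5, and in 23.8% of those genes, with motifs chosen after the data were seen. A match is a run of letters and not a measured binding site.

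Over all mice, the median summed level of the members was highest in the DS and lowest in the LCtx. It ran from 14.6 to 243 CPM in the DS (median 82.9), from 13.7 to 93.7 CPM in the NAc (median 32.6), from 23.7 to 41.6 CPM in the LH (median 32.3), from 18.0 to 77.6 CPM in the Amy (median 26.1) and from 9.72 to 131 CPM in the LCtx (median 16.8). The ranges of all 5 structures overlapped, and the top DS value came from 1 naive mouse at 0 hr with 120 CPM of Foxj1 and 184 CPM of Ttr. Within the LCtx the highest mouse stood far from the second highest, at 20.8 CPM, and in the LH all 23 mice lay in a narrow band. The order of the medians was not the same in each experience. In acute mice the median sum was 62.1 CPM in the NAc, 53.5 in the Amy, 48.9 in the DS, 35 in the LH and 15.9 in the LCtx, and the DS range (23.1 to 243 CPM) overlapped all the others, while challenge mice held 93.7 to 161 CPM in the DS and at most 42.3 in the other structures. Of the repeated DS mice, those of cohort exp16 held 14.6 to 34.9 CPM and those of exp17 78.2 to 142 CPM.

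Foxj1 ranged from 5.53 to 120 CPM in the DS (median 26.2), 10.7 to 21.4 in the LH (median 16.6), 2.84 to 26.1 in the NAc (median 10.6), 2.39 to 23.4 in the Amy (median 8.33) and 0.838 to 28.2 in the LCtx (median 3.57). Ccdc153 ranged from 0.648 to 35.3 CPM in the DS (median 14.6), 0 to 21 in the NAc (median 4.95), 0.264 to 17.4 in the Amy (median 3.25), 0.313 to 4.06 in the LH (median 1.82) and 0 to 24 in the LCtx (median 0.375). The LH therefore came next to the DS for Foxj1, and behind the NAc and Amy for Ccdc153. Tmem212 followed the order of Ccdc153, with medians of 13.6 CPM (DS), 2.75 (NAc), 0.673 (Amy), 0.483 (LH) and 0 (LCtx), where 16 of 28 mice had no count.

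Of the axoneme genes, Rsph1 had medians of 7.45 CPM (Amy), 7.15 (DS), 6.45 (NAc), 5.66 (LH) and 4.43 (LCtx). Morn1 had medians of 5.79 CPM (NAc), 5.57 (Amy), 5.05 (LCtx), 4.36 (DS) and 4.27 (LH), so this gene did not share the DS peak. Ak7 (median 5.6 CPM in the DS against 0.452 in the LCtx) and Dynlrb2 (8.44 against 1.47) did.

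**Figure D1:**
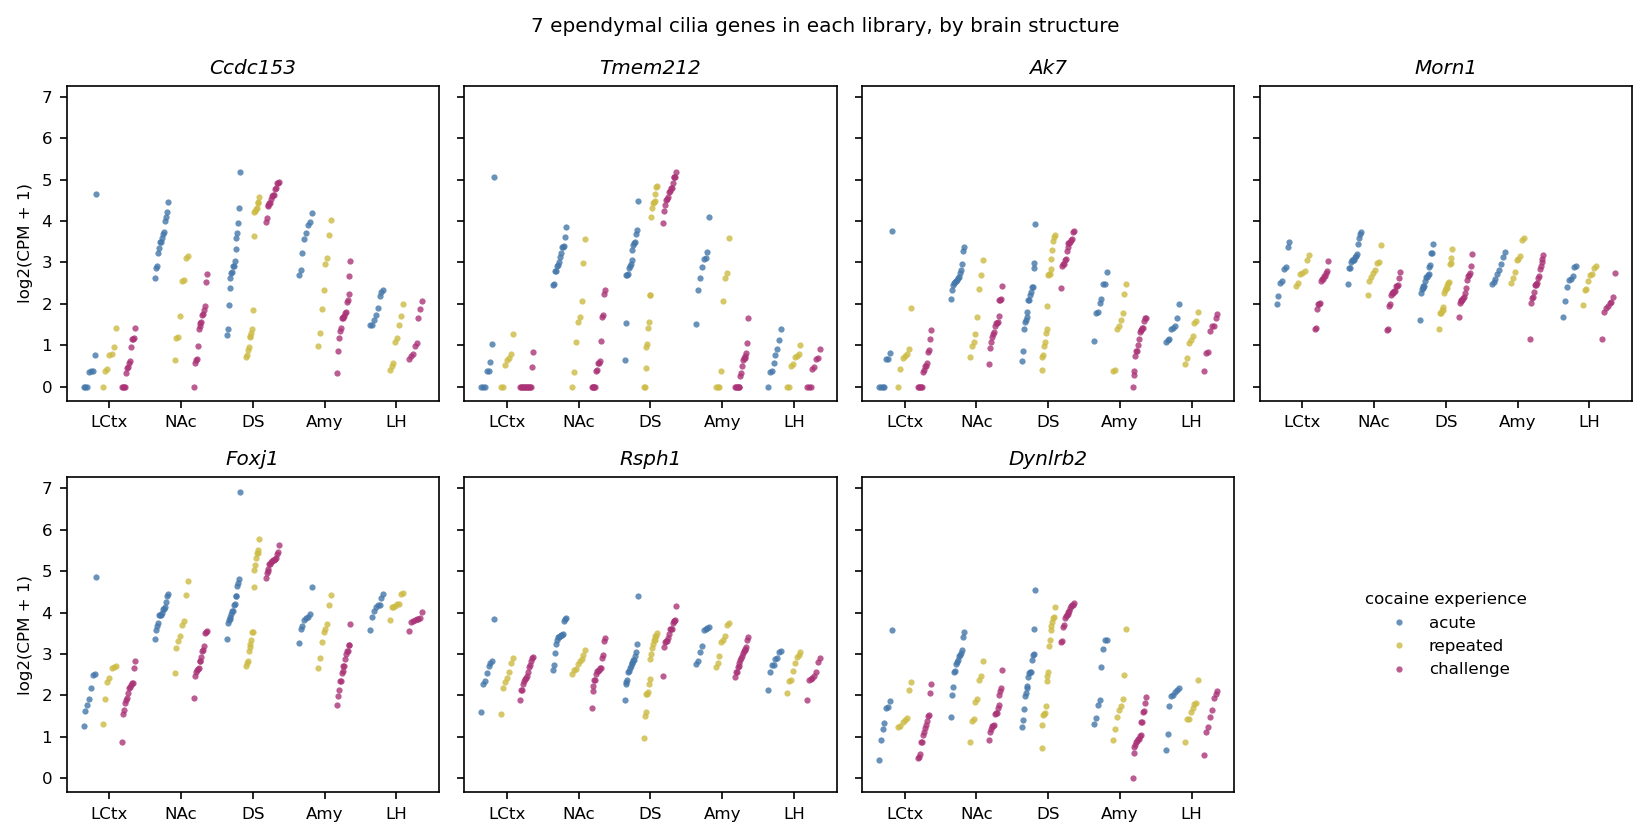
Level of each of the 7 genes, as log2(CPM + 1), in each library of the 5 structures (DS libraries of the shared run left out). Each point is a library, colored by cocaine experience and ordered by value within its group. Ccdc153, Tmem212 and Foxj1 reach their highest values in the DS, Morn1 sits at a like level in all structures, and a single acute LCtx library stands above the rest.

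Structures were next compared in the same mice, with the mouse as a block, by edgeR's quasi-likelihood test with Benjamini-Hochberg adjustment over all genes tested. Between LH and Amy (16 mice, both structures in 1 run) 64.6% of genes were called at adjusted p under 0.05, so a call alone says little about a member. Foxj1 was higher in the LH (log2FC 0.46 ± 0.11 SE, adjusted p = 0.000278), while Ccdc153 (−1.96 ± 0.21, adjusted p = 1.26e-11), Rsph1 (−0.65 ± 0.13, adjusted p = 3.52e-05) and Morn1 (−0.46 ± 0.15, adjusted p = 0.00745) were lower. All 4 tested members were thus called, and they moved in opposite directions. Without the 0 hr mice Ccdc153 did not pass the filter on low counts, and the other 3 were called. Tmem212, Ak7 and Dynlrb2 did not pass that filter in either fit, and with no filter they were called lower too (−2.80, −0.78 and −0.66).

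The wider program of motile cilia was read from a list of 93 other genes for dynein arms, radial spokes, the central pair, regulatory complexes and basal bodies. Of its 35 tested genes, 26 were called between LH and Amy, 4 higher in the LH (led by Dnah7b at 0.82, Fam183b at 0.59 and Dnaic2 at 0.36 log2 units) and 22 lower (led by Capsl at −2.20, Cfap65 at −1.96 and Zmynd10, a dynein assembly factor, at −1.86). The list median was −0.62 against −0.00 over all genes. Of genes used as markers of tanycytes, which lie in the third ventricle wall, 6 of 6 tested were lower in the LH, led in level by Crym (−2.85, adjusted p = 1.09e-33) and Dio2 (−1.79, adjusted p = 2.46e-24). Crym averaged 134 CPM in the Amy and 18.7 CPM in the LH. In the LCtx, which does not border that ventricle, Crym was 226 to 536 CPM and Dio2 40.8 to 148 CPM, so these genes do not mark tanycytes alone in this tissue. The LH neuron genes Pmch (3.47) and Hcrt (3.96) were higher in the LH, as in all 6 genes of their list.

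Between NAc and LCtx of 7 repeated mice, Foxj1 was higher in the NAc (log2FC 1.59 ± 0.26, adjusted p = 5.85e-06), 1 of 3 tested members, where 24% of all genes were called higher. Rsph1 (0.46, adjusted p = 0.139) and Morn1 (−0.01, adjusted p = 0.989) were not called. With no filter on low counts, Ccdc153 (2.46), Tmem212 (2.57) and Ak7 (1.67) were called as well. Of 29 motile cilia genes 7 were higher (Ccno 1.74, Dnah1 1.54 and Zmynd10 1.19 log2 units) and 8 lower (Cfap65 −1.12, Cfap45 −0.89 and Ak8 −0.89), where 24.6% of all genes were lower, with a list median of 0.06 against 0.02.

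In challenge mice, which gave 49 samples of mouse and structure in the LCtx, NAc, Amy and LH, only Foxj1, Rsph1 and Morn1 passed the filter. Foxj1 was higher in the NAc than in the LCtx (log2FC 1.07, adjusted p = 4.73e-06, 1 of 3 members called, 56.9% of all genes). It was higher in the Amy than in the LCtx (0.79, adjusted p = 0.000444), as was Rsph1 (0.47, adjusted p = 0.0129), 2 of 3 members where 51% of genes were called. The LH stood above the LCtx (1.94, adjusted p = 2.9e-12, 1 of 3 members, 64.3% of genes) and above the NAc, which was lower (−0.88, adjusted p = 0.000107, 1 of 3 members, 62.8% of genes). Foxj1 between NAc and LH was not called without the mice numbered replicate 1 (adjusted p = 0.099), and Rsph1 between Amy and LCtx was called in 1 of 4 fits that left out a replicate number.

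Of the 3 tested members, Foxj1 was called in 5 of these 6 pairs, with the LH above the other structures and the LCtx below them. With no filter on low counts, Ccdc153 was also called higher than in the LCtx in the Amy (2.16), NAc (1.76) and LH (1.46), Ak7 in the same structures (1.21, 2.00 and 1.64), and Tmem212 in the Amy (2.10) and NAc (3.10). Between NAc and Amy edgeR called none of the 3 members (Foxj1 0.28, adjusted p = 0.146, 0 at an unadjusted p under 0.05), where 59.6% of all genes were called, and DESeq2, which tested all 7, called 2. LH against Amy gave all 3 (52.9% of genes), again with Foxj1 higher (1.15) and Morn1 (−0.70, adjusted p = 0.0154) and Rsph1 (−0.55, adjusted p = 0.0165) lower. Without the mice numbered replicate 1, no member was called in that pair. The 8 calls of the 6 pairs were also 8 without the 0 hr mice.

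Between DS and NAc of 36 mice of all experiences, 5 of 7 members were higher in the DS, where 34.5% of all genes were, and 5 were without the 0 hr mice. Ccdc153, Tmem212, Ak7 and Dynlrb2 would have passed the filter on low counts on the DS but not on the NAc. With no filter 5 members were called higher as well. Tmem212 had the largest difference (log2FC 2.08 ± 0.33, adjusted p = 3.25e-07), followed by Ccdc153 (1.51 ± 0.31), Foxj1 (1.47 ± 0.17), Dynlrb2 (1.37 ± 0.25) and Ak7 (0.90 ± 0.24, adjusted p = 0.000984). Rsph1 (0.31, adjusted p = 0.065) and Morn1 (−0.21, adjusted p = 0.139) were not called. The 2 structures shared no sequencing run, so run and structure cannot be told apart here.

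Experiences were also taken one at a time, at 1 to 4 hr. In 10 acute mice 4 of 7 members were lower in the DS, where 25.4% of all genes were, namely Ak7 (−0.82 ± 0.21, adjusted p = 0.00148), Rsph1 (−0.70 ± 0.16, adjusted p = 0.000451), Ccdc153 (−0.61 ± 0.23, adjusted p = 0.0266) and Morn1 (−0.60 ± 0.18, adjusted p = 0.00594), and no member was higher. Ccdc153 was not called there by DESeq2. In 6 repeated mice, all of cohort exp17, 6 of 7 members were higher in the DS (28.8% of all genes), from 0.56 ± 0.23 for Rsph1 to 3.06 ± 0.33 for Tmem212, and in 12 challenge mice 6 of 7 were (32.7% of all genes), from 0.87 ± 0.16 for Rsph1 to 5.02 ± 0.25 for Tmem212. Morn1 was the member not called in either. In challenge mice Ccdc153 and Tmem212 passed the filter through the DS alone. Ak7, Dynlrb2, Foxj1 and Rsph1 would have passed on the DS but not on the NAc. There 2, 2, 11 and 11 of 12 mice reached the level of the filter. In repeated mice Ccdc153, Tmem212, Ak7 and Dynlrb2 would have passed on the DS but not on the NAc. In acute mice Ccdc153, Ak7 and Morn1 would have passed on the NAc but not on the DS. With no filter, 5, 6 and 6 members were called in acute, repeated and challenge mice. The difference between acute and challenge mice is tested as an interaction further on, with other DS libraries.

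Over all experiences, the motile cilia list had 16 of 37 genes higher in the DS (Dnali1 1.60, Odf3b 1.36 and Cfap126 1.04 log2 units), 11 lower (Rsph9 −1.09, Dnaic1 −0.67 and Zmynd10 −0.58) and a median of 0.14 against 0.00, where 34.3% of all genes were lower. Of markers of the subventricular zone, the neurogenic layer beneath the ependyma, 2 of 10 were higher and 4 lower, among them Sox11 (−0.70, adjusted p = 4.37e-07) and Dcx (−0.64, adjusted p = 6.97e-06). The choroid plexus gene Ttr did not pass the threshold (−0.35, adjusted p = 0.152), and Clic6 was lower (−0.18, adjusted p = 0.0245).

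Experiences were compared first in the DS, in the only run that held all 3 (the shared run, 6 mice per experience at 1 to 4 hr, with time as a covariate). Members were higher after repeated and challenge cocaine than after acute cocaine. Ccdc153 in acute mice ran from 1.11 to 16.5 CPM (median 4.46), in repeated mice from 8.27 to 27.7 (median 19.7) and in challenge mice from 15.6 to 29.9 (median 23.0). The 2 highest acute mice reached into the range of the repeated mice and 1 of them into that of the challenge mice. These values rest on 3 to 39, 14 to 51 and 22 to 46 counts.

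Foxj1 ran from 9.06 to 18.6 CPM in acute (median 12.4), 17.1 to 38.2 in repeated (median 23.7) and 17.7 to 35.6 in challenge mice (median 24.6). The acute range touched the others at its top end. Tmem212 ran from 1.11 to 9.81 CPM (median 5.53), 8.86 to 24.9 (median 20.8) and 5.89 to 31.6 (median 23.8), in the same order. Summed over the 7 genes, acute mice held 20.3 to 64.6 CPM (median 34.9), repeated mice 60.8 to 122 (median 97.7) and challenge mice 84.5 to 137 (median 104), so challenge mice lay wholly above acute mice.

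The filter on low counts kept a gene that reached the level of 10 counts at median depth in as many mice as 1 group held (here 6), whichever group they were in. A gene low in 1 group can thus enter through the other, and a count of tested members is not a count over all 7. Against acute mice, 6 members were tested and called higher after repeated cocaine, where 9.12% of all genes were called higher. Tmem212 rose by 1.81 ± 0.34 log2 units (adjusted p = 0.000179), Ccdc153 by 1.63 ± 0.38 (adjusted p = 0.00217), Morn1 by 1.30 ± 0.39 (adjusted p = 0.0178), Dynlrb2 by 1.26 ± 0.35 (adjusted p = 0.0101), Rsph1 by 0.97 ± 0.33 (adjusted p = 0.0403) and Foxj1 by 0.93 ± 0.22 (adjusted p = 0.00258). Ak7 did not pass the filter (without it, 1.25, adjusted p = 0.0537), and of the 6, Foxj1 alone would have passed on the acute mice by themselves. DESeq2 called 4 members and not Ccdc153 or Rsph1. Leaving out 1 mouse at a time gave 4 to 6 calls, and Rsph1 passed in 5 of 12 such fits, Morn1 in 9.

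After challenge cocaine 6 members were tested and called higher than in acute mice, against 10% of all genes. Ak7 entered that test only through the challenge mice (10 to 23 counts), since none of the 6 acute mice (0 to 10 counts) reached the level of the filter, 5.12 CPM. Tmem212 rose by 2.02 ± 0.33 (adjusted p = 2.06e-05), Ccdc153 by 1.95 ± 0.35 (adjusted p = 8.73e-05), Ak7 by 1.94 ± 0.43 (adjusted p = 0.00125), Dynlrb2 by 1.38 ± 0.39 (adjusted p = 0.0113), Rsph1 by 1.07 ± 0.38 (adjusted p = 0.0449) and Foxj1 by 0.93 ± 0.22 (adjusted p = 0.00231). Morn1 was filtered out (without the filter, 0.88, adjusted p = 0.254), so that 6 of 7 were called with no filter. DESeq2 called 5 of them and not Rsph1. Rsph1 passed in 3 of 12 fits that left out a mouse, and Dynlrb2 was lost only without the acute mouse exp20_7. The acute mice serve both comparisons.

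Few other cilia genes passed with them. Of the motile cilia list, 2 of 20 tested genes rose after repeated cocaine, Cfap126 (2.19 ± 0.41, adjusted p = 0.000179) and Fam183b (1.5 ± 0.38, adjusted p = 0.00475), with a list median of 0.36 against 0.00 for all genes. After challenge 4 of 19 rose, Cfap126 (2.00 ± 0.40), Fam183b (1.61 ± 0.35), and Spef1, a central pair protein (1.13 ± 0.28), the largest among them, with a median of 0.37 against 0.01.

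Several neighbouring cell types moved in the same libraries, and their part in the result was not tested. The subventricular zone list summed to 151 to 232 CPM in acute, 204 to 275 in repeated and 201 to 306 in challenge mice, with 3 of 8 genes higher and 1 lower after repeated cocaine and 2 of 8 higher after challenge. Sox11 was 0.39 (adjusted p = 0.0219) and 0.61 log2 units (adjusted p = 0.000428) higher, and Dcx 0.71 (adjusted p = 0.00557) and 0.47 (adjusted p = 0.0838). Oligodendrocyte genes fell, 3 of 7 after repeated and 5 of 7 after challenge cocaine, Mbp among them (−0.47 and −0.81), where 7.26% and 8.53% of all genes were lower.

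No choroid plexus transcript was called beside the members. The 15-gene list summed to 24.1 to 35.5, 20.5 to 41.4 and 20.3 to 47.5 CPM, its defining gene Ttr was 0 to 2.22, 0 to 0.586 and 0 to 6.09 CPM, and Clic6 differed by 0.10 (adjusted p = 0.79) and 0.00 (adjusted p = 0.993). In the same comparisons, striatal projection neuron genes were higher in 4 and lower in 1 of 8, astrocyte genes higher in 2 and then 1 and lower in 2 and then 1 of 9 (Slc1a2 −0.22 and −0.40, Slc1a3 0.18 and 0.05), and endothelial genes higher in 2 and then 1 of 8 (Ly6c1 0.82 and 0.56, Slc2a1 0.44 and 0.26). Tanycyte genes were higher in 1 of 4 in both, meningeal genes lower in 0 and then 1 of 4 (Ptgds −0.14 and −0.35, Igf2 0.14 and −0.40), hypothalamic neuron genes lower in 1 of 2 in both, and the single excitatory neuron gene was not called.

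**Figure D2:**
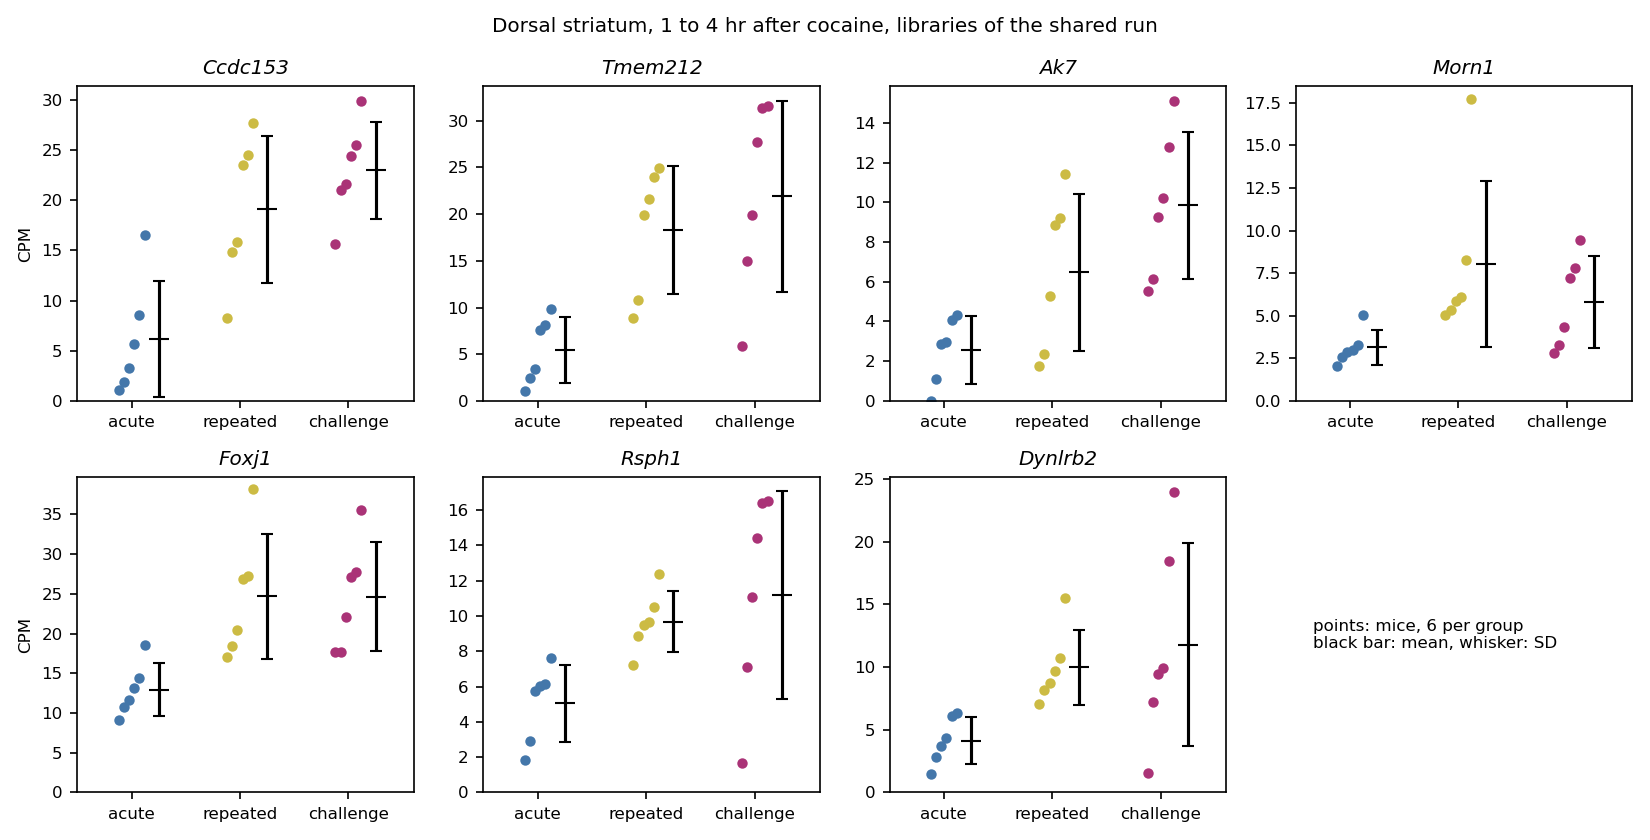
CPM of each gene in the DS 1 to 4 hr after cocaine, in libraries of the shared run. Points are mice (6 per experience, ordered by value), the black bar is the mean and the whisker the SD. Summed over the genes, challenge mice (84.5 to 137 CPM) lie above all acute mice (20.3 to 64.6 CPM).

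The repeated mice of the shared run all came from cohort exp17. A second repeated cohort, exp16, was sequenced with exp17 in another run (9 and 8 mice), and there the 2 cohorts under the same treatment stood apart. Foxj1 ran from 5.53 to 10.6 CPM in exp16 (median 7.98) and from 23.7 to 54 CPM in exp17 (median 40.9). Ccdc153 ran from 0.648 to 2.58 CPM (median 1.3) and from 11.5 to 23.1 (median 18.7). Tmem212 ran from 0 to 3.66 CPM (median 1.04) and from 16 to 27.6 (median 21.2). The lowest exp17 mouse was above the highest exp16 mouse for each of these.

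Dynlrb2 separated in the same way (0.648 to 4.89 CPM against 8.08 to 16.5). Ak7 met at its edges (0.31 to 5.65 against 5.48 to 11.6), as did Rsph1 (0.973 to 6.98 against 6.32 to 10.4), and Morn1 overlapped widely (1.61 to 6.98 against 2.6 to 9.04). The sum of the 7 was 14.6 to 34.9 CPM in exp16 and 78.2 to 142 CPM in exp17.

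In the 13 mice taken at 1 to 4 hr, 6 of 7 members were higher in exp17, with the filter and without it, against 3.75% of all genes. Ccdc153 entered only through exp17 (40 to 73 counts), since all 7 exp16 mice, at 2 to 8 counts, were under the filter's level of 3.17 CPM. Of the others, Foxj1 alone would have passed on exp16 by itself. Ccdc153 differed by 3.77 ± 0.26 log2 units (adjusted p = 1.54e-14), Tmem212 by 3.61 ± 0.27 (adjusted p = 2.66e-13), Dynlrb2 by 2.33 ± 0.27 (adjusted p = 6.05e-08), Foxj1 by 2.22 ± 0.14 (adjusted p = 3.25e-15), Ak7 by 2.07 ± 0.34 (adjusted p = 4.52e-05) and Rsph1 by 1.44 ± 0.28 (adjusted p = 0.000506). Morn1 did not pass (0.71 ± 0.31, adjusted p = 0.161). This difference between cohorts of 1 treatment was larger in size than that between repeated and acute mice in the shared run for each of Ccdc153, Tmem212, Dynlrb2, Foxj1 and Rsph1, which was not tested as such.

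The comparison of repeated with acute mice accordingly turned with the cohort. Over the libraries of the first runs, exp17 mice gave 6 of 7 members higher than acute mice, against 29.3% of all genes. The exp16 mice gave 5 of 7 lower, against 25.6% of all genes (Ccdc153 by −2.48, Tmem212 by −2.03, Foxj1 by −1.02, Dynlrb2 by −0.94 and Rsph1 by −0.85 log2 units), and both cohorts together gave none, where 60% of all genes were called in either direction, with adjusted p from 0.0888 for Dynlrb2 to 0.936 for Rsph1. In that comparison run and experience cannot be told apart.

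Along with the members, 7 of 27 motile cilia genes were higher in exp17, led by Odf3b (3.0 ± 0.44), Fam183b (2.95 ± 0.33) and Cfap126 (1.85 ± 0.35), with a list median of 0.38 against 0.01. Subventricular zone genes were higher in 8 of 10, among them Top2a, a gene of dividing cells (2.33 ± 0.32), Dlx2, a factor of interneuron progenitors (2.17 ± 0.23), Cd24a (1.96 ± 0.17), Dcx (0.90 ± 0.14) and Sox11 (0.89 ± 0.10), and the list summed to 97.5 to 141 CPM in exp16 and 173 to 265 in exp17. Ttr was lower in exp17 (−0.64 ± 0.12, adjusted p = 0.000383, 19.9 to 28.8 against 30.4 to 53.2 CPM).

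Of the other lists in that comparison, striatal projection neuron genes were lower in 3 of 8 (Penk −0.22, adjusted p = 0.00374), oligodendrocyte genes lower in 2 of 7 (4.75% of all genes were lower), endothelial genes higher in 3 of 9, tanycyte genes in 2 of 5 and hypothalamic neuron genes in 2 of 2. Astrocyte genes were higher in 2 and lower in 1 of 9, meningeal genes higher in 2 and lower in 1 of 5, and the 1 excitatory neuron gene was not called. The part of these cell types in the result was not tested.

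**Figure D3:**
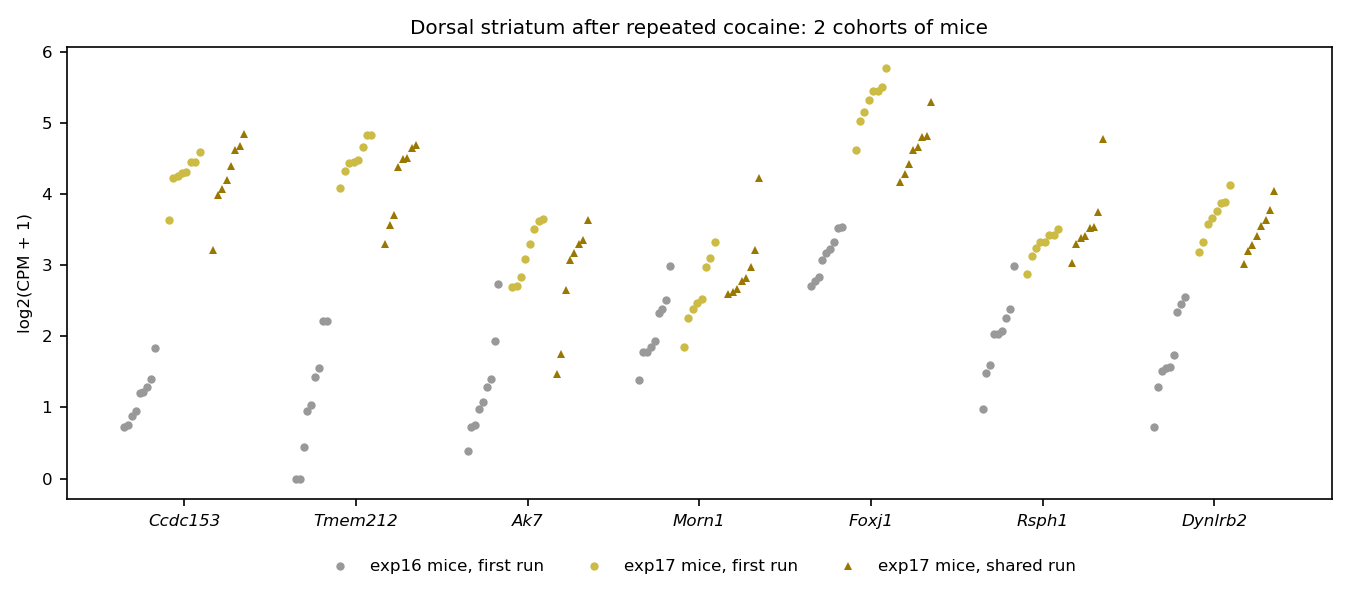
Level of each gene as log2(CPM + 1) in the DS after repeated cocaine, for cohort exp16 (9 mice), cohort exp17 (8 mice) in the same first run, and cohort exp17 in the shared run. Points are libraries ordered by value. The exp17 libraries of both runs lie above exp16 for Ccdc153, Tmem212 and Foxj1, and overlap it for Morn1.

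In the NAc, 5 of 7 members were called lower in repeated mice than in acute mice, and all 7 in challenge mice. Each NAc run held a single experience, so run and experience cannot be told apart. At 1 to 4 hr, Ccdc153 ran from 5.16 to 17.7 CPM in 10 acute mice (median 11.4), 0.555 to 7.88 in 6 repeated mice (median 3.58) and 0 to 2.83 in 12 challenge mice (median 1.83). Challenge mice lay wholly below acute mice, and repeated mice overlapped both. Tmem212 ran from 4.49 to 13.5 CPM (median 8.09), 0 to 10.9 (median 1.53) and 0 to 2.3 (median 0.398), the last on at most 8 counts.

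Foxj1 showed the same order, with 10.9 to 20.8 CPM in acute (median 15.1), 4.86 to 26.1 in repeated (median 10.8) and 2.84 to 10.7 in challenge mice (median 6.13), where challenge mice again lay below acute mice and repeated mice overlapped both. After repeated cocaine 5 of 7 members were lower than in acute mice, with the filter and without it, against 4.34% of all genes. Ccdc153, Tmem212, Ak7 and Dynlrb2 would have passed the filter on the acute mice but not on the repeated mice. Of 6 repeated mice 3, 2, 2 and 2 reached its level. Ccdc153 fell by 1.61 ± 0.28 log2 units (adjusted p = 0.000215), Tmem212 by 1.55 ± 0.39, Dynlrb2 by 1.14 ± 0.28, Ak7 by 0.97 ± 0.29 and Rsph1 by 0.74 ± 0.17. Foxj1 and Morn1 were not called. Without the mice numbered replicate 2, Ccdc153 alone was called. DESeq2 gave an adjusted p to 4 of the 7 members and called 2 of them.

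After challenge 7 of 7 members were lower than in acute mice, with the filter and without it, against 17.5% of all genes. Ccdc153 and Tmem212 passed the filter through the acute mice alone. Each had 0 to 8 counts in challenge mice, all 12 of which lay under its level of 3.01 CPM, so the sizes of these 2 falls rest on counts close to 0. Ak7 would have passed on the acute mice but not on the challenge mice. Tmem212 fell by 3.46 ± 0.34 (adjusted p = 6.12e-10), Ccdc153 by 2.76 ± 0.27 (adjusted p = 3.43e-10), Dynlrb2 by 1.63 ± 0.23, Ak7 by 1.43 ± 0.25, Foxj1 by 1.10 ± 0.16, Morn1 by 0.87 ± 0.17 and Rsph1 by 0.79 ± 0.17 (adjusted p = 0.000452). Of motile cilia genes 10 of 30 were lower and 1 higher (list median −0.36 against −0.01), and after repeated cocaine 3 of 38 were lower.

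Other cell types moved in those challenge libraries too, and their part was not tested. Oligodendrocyte genes were lower in 7 of 7 (Mbp −0.59), subventricular zone genes in 7 of 10 (Dcx −0.46, adjusted p = 0.00024) and endothelial genes in 5 of 9, while excitatory neuron genes, which mark cortex, were higher in 5 of 5 (Slc17a7 1.22, Neurod6 1.70), where 17.7% of all genes were higher. No choroid plexus gene of 3 was called.

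In the Amy, acute and repeated mice shared a run. Ccdc153 ran from 6.05 to 17.4 CPM in 6 acute mice (median 12.5), 0.963 to 11.7 in 6 repeated mice (median 3.33) and 0.264 to 7.24 in 12 challenge mice (median 2.2). Tmem212 ran from 1.87 to 16 CPM (median 6.33), 0 to 5.73 (median 1.61) and 0 to 2.17 (median 0.101). Acute mice were the highest for both genes, with overlapping ranges.

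After repeated cocaine 2 of 6 tested members were lower than in acute mice, against 5.18% of all genes: Ccdc153 (−1.34 ± 0.31, adjusted p = 0.00401) and Tmem212 (−1.47 ± 0.50, adjusted p = 0.0457). Ccdc153 would have passed the filter on the acute mice but not on the repeated mice, of which 3 of 6 reached its level. Foxj1 (−0.37, adjusted p = 0.293), Ak7 (−0.41, adjusted p = 0.535), Morn1 (0.46, adjusted p = 0.213) and Rsph1 (0.02, adjusted p = 0.965) were not called. Dynlrb2 did not pass the filter, and without it was called lower too (−0.89, adjusted p = 0.0279). Tmem212 was lost when any of 8 of the 12 mice was left out (repeated mice exp17_4, exp17_5, exp17_6 and exp17_9, acute mice exp20_5, exp20_6, exp20_12 and exp20_16), while Ccdc153 was called in every such fit. DESeq2, which gave an adjusted p to 4 members, called neither gene (Ccdc153 −1.31, adjusted p = 0.113).

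Of motile cilia genes in that comparison 3 of 40 were lower, Cfap206 (−1.34 ± 0.29, adjusted p = 0.00207), Dnah5, an outer dynein arm heavy chain (−0.74 ± 0.25, adjusted p = 0.0439), and Dnal1 (−0.21 ± 0.07, adjusted p = 0.0327), with a list median of −0.10 against −0.00. Striatal projection neuron genes were lower in 7 of 8 (Penk −0.61, Ppp1r1b −0.71) and excitatory neuron genes higher in 3 of 5 (Slc17a7 0.73), against 7.74% of all genes higher, and their part was not tested. Subventricular zone (0 of 8) and oligodendrocyte genes (0 of 7) were not called, and Clic6 alone of 5 choroid plexus genes was lower (−0.72, adjusted p = 0.0333).

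After challenge, with other runs than the acute mice, 2 of 4 tested members were lower in the Amy, Ccdc153 by 2.25 ± 0.26 (adjusted p = 1.09e-07) and Foxj1 by 1.18 ± 0.20 (adjusted p = 6.09e-05), against 9.39% of all genes, which was also the direction of 10 of 41 motile cilia genes. Ccdc153 would have passed the filter on the acute mice but not on the challenge mice, of which 3 of 12 reached its level. Tmem212, Ak7 and Dynlrb2 were called lower with no filter on low counts.

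In the LH and LCtx only 3 members passed the filter on low counts. LCtx libraries of each experience came from separate runs, as did LH challenge libraries, so run and experience are confounded there, while LH acute and repeated mice shared a run. In the LH edgeR called none of them after repeated cocaine (6.57% of all genes, 0 members at an unadjusted p under 0.05), with Foxj1 at 11 to 21 CPM in acute (median 17) and 13.1 to 21.4 in repeated mice (median 17.5), and none after challenge (21% of all genes). DESeq2 gave an adjusted p to 0 members after repeated cocaine and to 2 after challenge, neither of them called. Foxj1 was then 10.7 to 13.5 CPM (log2FC −0.40, adjusted p = 0.0546), the 1 member with an unadjusted p under 0.05. Of the motile cilia list 0 of 28 genes were called in the LH after repeated cocaine. In the LCtx edgeR called none of 3 after repeated cocaine (2.98% of all genes, 0 members at an unadjusted p under 0.05, none by DESeq2). Foxj1 alone was called after challenge (−1.19 ± 0.40, adjusted p = 0.0434, against 7.24% of genes lower), though not by DESeq2 (adjusted p = 0.052). Without the mice numbered replicate 2, which include 1 LCtx library described with the time courses, that difference was 0.02. With no filter on low counts, Tmem212 (−3.94 and −4.95 after repeated and challenge cocaine) and Ccdc153 (−2.92 and −2.35) were called lower in the LCtx, as were Foxj1 after both (−1.07, adjusted p = 0.00796, after repeated cocaine) and Ak7 after challenge (−1.77). Without that library and with no filter, no member was called in either comparison (Tmem212 0.88 and −0.26, Ccdc153 1.19 and 1.37).

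Whether the DS differed from the NAc and Amy in the challenge effect was tested as an interaction (DS libraries of the shared run). The effect on all 7 members was higher in the DS than in the NAc, against 11.9% of all genes, by 5.48 log2 units for Tmem212, 4.71 for Ccdc153, 3.37 for Ak7, 3.03 for Dynlrb2, 2.04 for Foxj1, 1.88 for Rsph1 and 1.77 for Morn1. Against the Amy, 6 of 7 were higher (9.66% of all genes), and Morn1 was not called (1.08, adjusted p = 0.0844). The 3 structures came from overlapping sets of mice but from different runs, and the fit took samples of 1 mouse as independent. With the mouse as a block, in the 11 mice with both DS and NAc, 7 of 7 members were called higher in the DS. No acute mouse had both DS and Amy in these libraries, so that fit could not be made for the Amy.

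**Figure D4:**
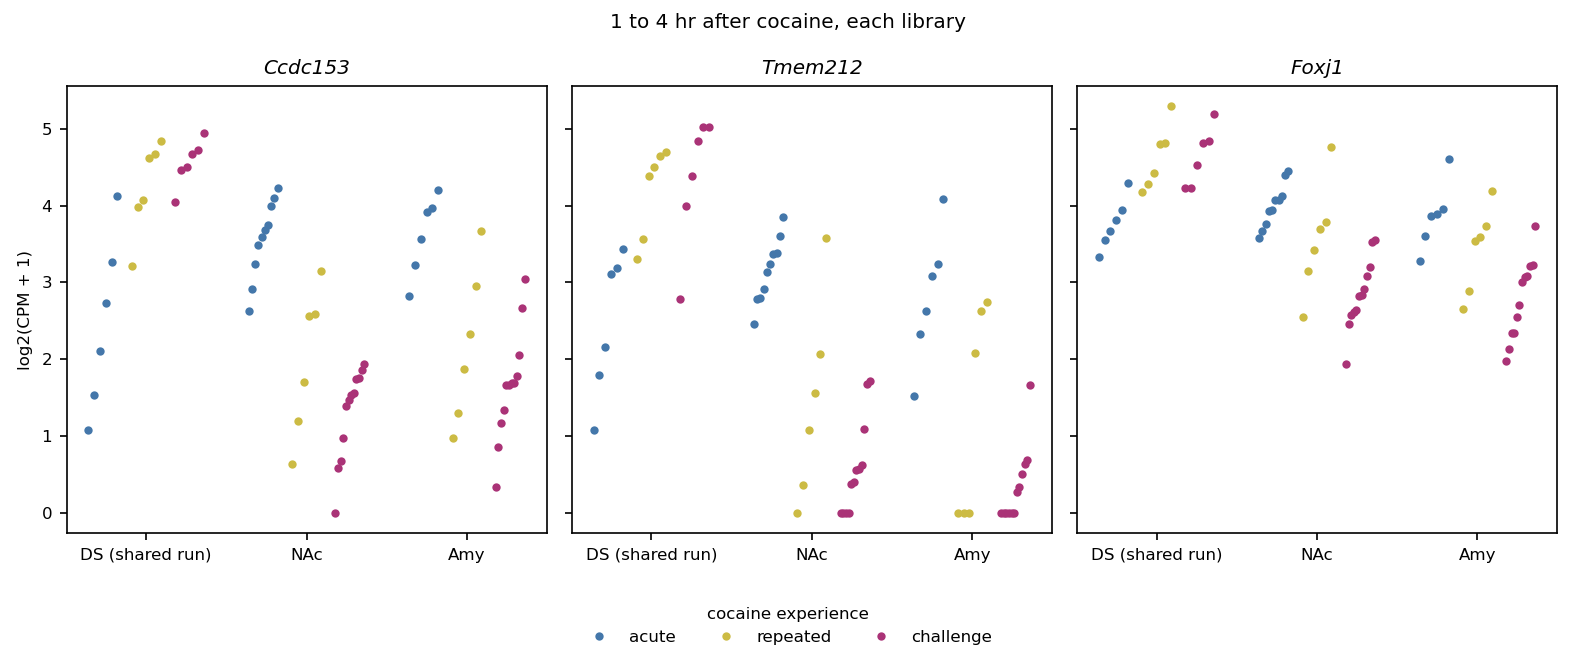
Level of Ccdc153, Tmem212 and Foxj1 as log2(CPM + 1) 1 to 4 hr after cocaine, in the DS (shared run), NAc and Amy. Points are libraries, colored by experience and ordered by value within a group. Acute mice are lowest in the DS and highest in the NAc and Amy, for example for Ccdc153 (medians of 4.46, 11.4 and 12.5 CPM).

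At 0 hr, where the members were noticed, values are described only. Ccdc153 in the NAc was 6.31, 9.14, 10.2 and 21 CPM in naive mice, 1.27 and 7.58 in repeated mice and 0.564 and 5.11 in abstinent mice. Morn1 there was 6.34, 7.81, 7.96 and 11.9 CPM, then 5.76 and 6.98, then 1.6 and 3.67. Abstinent mice were the lowest group for both.

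Ak7 in the DS was 0.545, 2.49, 6.24 and 14.2 CPM in naive mice, 0.31 and 1.63 in exp16 and 6.13 and 11.3 in exp17 repeated mice, and 7.43, 9.39 and 12.5 in abstinent mice. Tmem212 in the Amy was 6.37 and 7.62 CPM, 0.304 and 11, and 0.673, 0.69 and 1.08. For Ak7 the naive range covered that of the abstinent mice.

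Over the hours after cocaine, members were called in 1 of 15 time courses. In an F test of 1, 2 and 4 hr against 0 hr, 4 of 7 members were called after acute cocaine in the LCtx (Ccdc153 adjusted p = 0.0016, Tmem212 0.00484, Ak7 0.0153 and Foxj1 0.0495), against 0.29% of all genes. In the other 14 courses edgeR called no member, DESeq2 called none in the 12 where it gave members an adjusted p, and 8 of 95 member tests had an unadjusted p under 0.05, against backgrounds of 0.0966% and 0.0818% in the LCtx (repeated and challenge), 0.193%, 0.0386% and 0.0926% in the NAc (acute, repeated and challenge, here and below), 2.7%, 0.488% and 0.673% in the DS, 0.0853%, 0.0233% and 0.109% in the Amy, and 0.0529%, 0.0302% and 0.00755% in the LH. Few genes of any kind were called in most of them. With no filter on low counts, 5 of these 14 courses had 1 member called each, Dynlrb2 (Amy, acute), Ccdc153 (Amy, repeated), Foxj1 (DS, acute) and Tmem212 (NAc, repeated and challenge), and Foxj1 was also called in the DS after acute cocaine with cohort as a covariate.

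The LCtx course rested on 1 library, the second of 2 mice at 1 hr. It held 24 CPM of Ccdc153 (92 counts), 32.3 of Tmem212 (124 counts), 12.5 of Ak7 (48 counts), 28.2 of Foxj1 (108 counts), 13.3 of Rsph1 and 11 of Dynlrb2. The highest of the other 7 acute LCtx libraries held 0.697, 1.05, 0.757, 4.74, 6.15 and 2.63 CPM. Morn1, at 9.39 CPM, stayed within their range. Without the mice numbered replicate 2, Ccdc153, Tmem212 and Ak7 did not pass the filter on low counts and were not tested, and the other 4 members were not called.

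That library also stood apart in other cells' genes. It was above all 7 others in 6 of 7 members, 59 of 93 motile cilia genes, 10 of 12 subventricular zone, 7 of 7 oligodendrocyte and 7 of 8 striatal projection neuron genes, against 20.7% of 13457 expressed genes. It was also above them in 6 of 9 astrocyte genes, 4 of 15 choroid plexus genes and 3 of 6 hypothalamic neuron genes. It was below all others in 6 of 6 excitatory neuron genes, 6 of 10 meningeal genes, 4 of 9 endothelial and 2 of 9 tanycyte genes, against 16.1% of expressed genes. Ccdc153 in the same mouse was 18.8 and 16.5 CPM in its 2 DS libraries and 10.2 CPM in the NAc.

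Whether the members moved together was asked across mice, as the correlation of log2(CPM + 1) after each group's mean was taken off, for 21 pairs in each of 5 structures (105 pairs, 100000 permutations within groups, Benjamini-Hochberg adjusted). Both genes of a pair come from 1 library and share its depth. Pairs of other genes were not tested, so no share over all genes stands beside these counts. In the DS 17 of 21 pairs were called (48 mice, median r 0.83, from 0.33 to 0.94), in the NAc 5 (36 mice, median 0.45), in the Amy 2 (31 mice, median 0.57), in the LCtx 1 (26 mice, median 0.40) and in the LH 0 (22 mice, median 0.05, from −0.60 to 0.72). Without the 0 hr mice 15 pairs were called in the DS (37 mice, median 0.80), 2 in the NAc (28 mice, median 0.29, Foxj1 with Tmem212 and with Dynlrb2), the same 2 in the Amy, 1 in the LCtx (Ak7 and Foxj1) and 0 in the LH.

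The closest pair in the DS was Ccdc153 and Tmem212 (Pearson's r 0.94, Spearman's rho 0.91, permutation test adjusted p = 8.75e-05, and r 0.93 without the 2 mice farthest from the median). Ccdc153 with Foxj1 reached 0.93. The repeated groups of the DS mix 2 cohorts, and with the mean taken off within each cohort 13 of 21 pairs were called, with a median r of 0.65 (0.16 to 0.80) and 0.78 for Ccdc153 with Tmem212. Morn1 was the least tied, with r of 0.33 to 0.44 and 2 of its 6 pairs called, with Ak7 (permutation test adjusted p = 0.0153) and Foxj1 (0.0383).

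In the NAc the called pairs joined Tmem212 with Foxj1 (r 0.72, rho 0.72, permutation test adjusted p = 0.00245), Dynlrb2 (0.65) and Ak7 (0.60), and Foxj1 with Dynlrb2 (0.61) and Ccdc153 (0.58). In the Amy they joined Rsph1 with Ak7 (0.74) and Tmem212 (0.68). The LCtx pair, Foxj1 and Rsph1, had r 0.76, and 0.44 without the 2 mice farthest from the median. Without the 1 LCtx library above, that pair had r 0.63 (permutation test adjusted p = 0.0612), the median r of the LCtx pairs was −0.14, and the pair called was Ak7 and Morn1, with r −0.54 (permutation test adjusted p = 0.0211). In the LH no pair was called, and 1 was without the 2 mice farthest from the median, where Ccdc153 and Dynlrb2 had r 0.80.

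**Figure D5:**
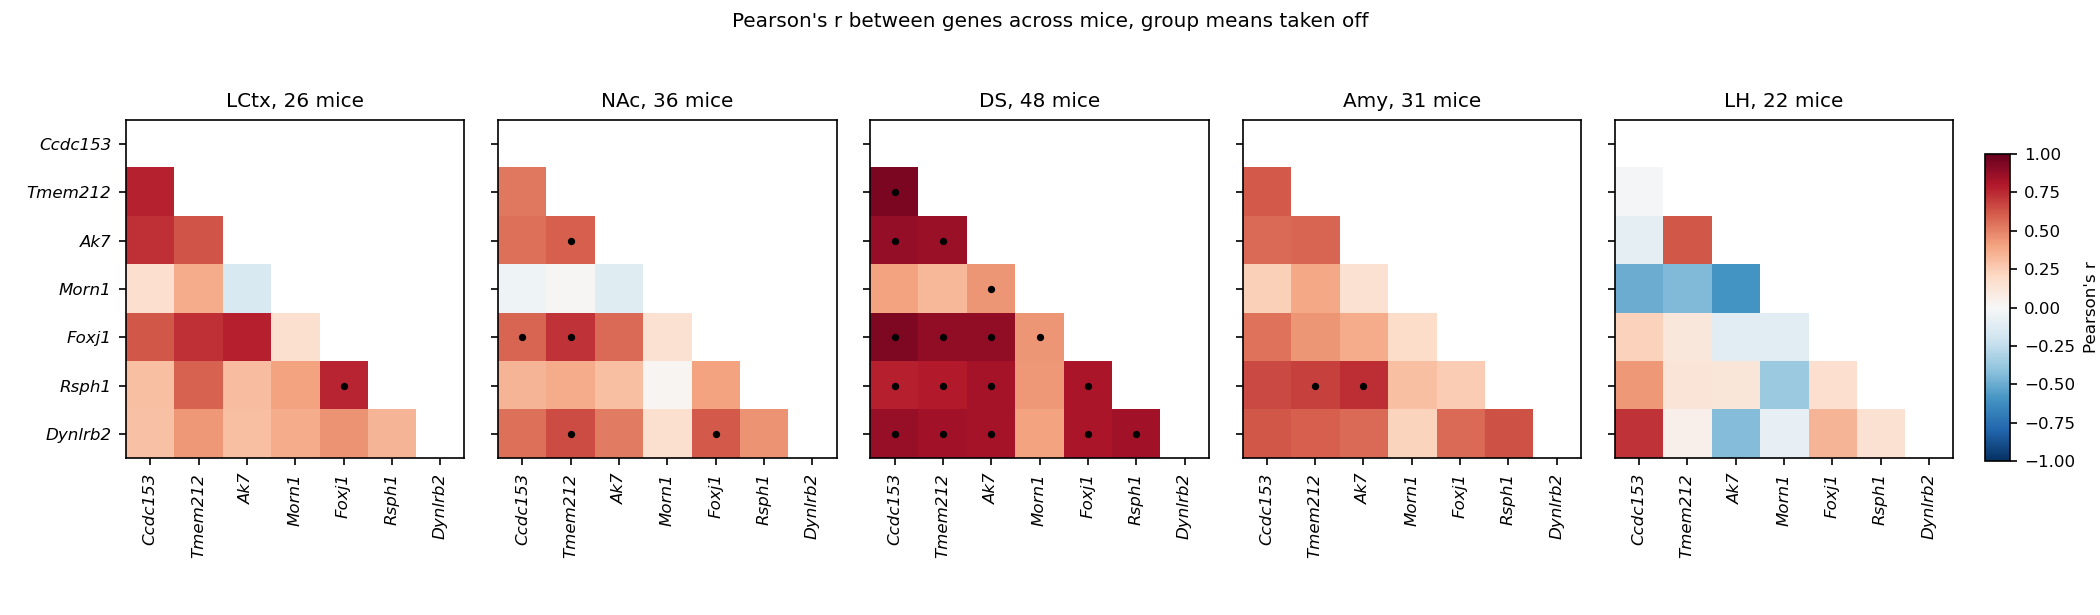
Pearson's r between each pair of the 7 genes across mice in each structure, group means taken off, from −1 (blue) to 1 (red). A dot marks a pair with an adjusted permutation p under 0.05. All DS pairs are positive (0.33 to 0.94) with Morn1 the palest, and LH pairs scatter around a median of 0.05.

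Second libraries of 24 DS mice, in 12 groups of 2, show how far single values repeat. The difference between the 2 mice of a group correlated between libraries with r 0.90 for Ccdc153, 0.83 for Dynlrb2, 0.79 for Tmem212 (0.23 without the 2 mice farthest from the median), 0.68 for Ak7, 0.45 for Rsph1, 0.38 for Foxj1 and −0.11 for Morn1. The same mouse was higher in both libraries in only 6 of 12 groups for each of Ccdc153, Foxj1 and Morn1. That count was 7 for Tmem212, 8 for Rsph1 and 10 for Dynlrb2. Only Ak7 passed the exact permutation test over all arrangements within groups after adjustment over the 7 genes (adjusted p = 0.0376, rho 0.71, the same mouse higher in 10 of 12 groups). Ak7 in the 0 hr DS mice was among the values that chose the members, and without the 3 groups at 0 hr it was not called either (r 0.71, exact permutation test adjusted p = 0.191, 7 of 9 groups). Ccdc153, Dynlrb2 and Rsph1 had an adjusted p of 0.0974, Tmem212 0.171, Foxj1 0.201 and Morn1 0.679.

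Ttr, which marks the choroid plexus, did not repeat between libraries of the same mice. It was 19.9 to 184 CPM in the first DS runs and 0 to 6.09 CPM in the shared run, so its level followed the run.

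The genes most like the members in each structure, by mean r with the 7 over mice and outside the list, differed between structures. In the DS (48 mice, 12911 genes) they were Rarres2 (0.80), Cd24a (0.79), Nnat (0.79), the dynein arm gene Dnali1 (0.79) and 2410004P03Rik (0.78). In the NAc they were 2410004P03Rik (0.52), Fam183b (0.47), Capsl (0.46), Nme9 (0.46) and Cfap126 (0.45). In the Amy they were Nt5dc2 (0.60), Dnali1 (0.58), Tctex1d4 (0.57), Rarres2 (0.56) and 2410004P03Rik (0.54). The same uncharacterised gene, 2410004P03Rik, stood in all 3 lists.

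In the LCtx the leading genes were Gfra1 (0.66), Ccdc146 (0.66), Gad2 (0.65), Cacna2d2 (0.65) and Slc14a2 (0.64). Without the 1 LCtx library that stood apart they were Bend7 and Golim4 (both 0.30), Prkar2a (0.29), Akap1 and Ksr2 (both 0.28), and the mean r of the members with one another had a median of −0.03 in place of 0.45. In the LH they were Chil1 (0.37), Cutc (0.35), Ifit1 (0.34), Sars2 (0.33) and Anxa2 (0.33). Of the genes named for the LCtx and LH, Ccdc146 alone is on the motile cilia list.

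As groups in the DS, the 68 motile cilia genes measured had a median mean r of 0.53 and the 12 subventricular zone genes 0.69, against −0.01 for all genes, while striatal projection neuron genes had −0.59. Among the 100 genes most like the members, 22 were motile cilia and 8 subventricular zone genes. Within cohorts the medians were 0.36, 0.41 and −0.38, with 18 and 2 genes among the first 100. The motile cilia median was lower elsewhere, at 0.21 (LCtx), 0.14 (NAc), 0.09 (Amy) and 0.05 (LH). In the LCtx, oligodendrocyte (0.53) and striatal projection neuron genes (0.50) had higher medians, and without the 1 library these were 0.03 for motile cilia, 0.07 and 0.00.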

How the data were processed

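3′-RNA-seq was made by the authors from barcoded reverse transcription primers with unique molecular identifiers, pooled cDNA and tagmentation. Per the study's methods and processing notes, PCR duplicates were removed, the deepest samples were down-sampled, and reads were aligned to GRCm38 with STAR and counted per gene with HTSeq (versions are not given in the sources used here), and the use of strand was not stated. The deposited table holds whole-number counts of reads per gene, not normalized, for 19363 genes, in libraries of 1193306 to 10367769 counts. The fewer the counts of a gene, the less precise its value.

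Structure, experience, time and replicate came from the sample labels, and mouse, cohort and run from the sample names and the supplementary sample sheet. Libraries of 1 mouse and structure from 2 runs were summed, except in the DS, where the shared run was kept apart. Replicates were separate mice.

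Counts were tested in R 4.3.3 with edgeR 4.0.16 (filterByExpr with a minimum count of 10, TMM factors, quasi-likelihood F tests, Benjamini-Hochberg adjustment over all genes tested, threshold 0.05). Alternatives were RLE factors, no filter, DESeq2 1.42.0, a replicate block and leaving out mice. Scripts were tested on simulated data. Levels, correlations (pseudocount 1, alternative 0.1, 100000 two-sided permutations) and plots used Python 3.11.15, numpy 2.4.6, pandas 2.3.3, scipy 1.17.1 and matplotlib 3.10.9.

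The members and lists (motile cilia, choroid plexus, subventricular zone, tanycytes, meninges, astrocytes, endothelium, oligodendrocytes, striatal projection neurons, hypothalamic neurons, excitatory neurons) were chosen with earlier results of these data known. Genes named are the 7 members in every comparison, up to 3 called motile cilia genes per direction with the largest change in experience comparisons within a run and in LH against Amy, NAc against LCtx and DS against NAc, the 5 genes per structure with the highest mean r with the members, and the 2 highest genes of each list of neighbouring cells with Ttr. In the comparison of cohorts, which was added after the data were seen like that of DS and NAc within experiences, the genes named beside the members were chosen after their values were seen.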

Additional observations from a re-analysis of the deposited data

Results flagged for a closer look

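Values of each of the 7 genes were looked at in 21 groups of 4 to 10 mice, 147 sets of values in all. A mouse far from the others was marked by Dixon's criterion, which chance meets in about 1 in 20 such sets. It was met 8 times, near the rate of chance, so these mice are given as a description only. Foxj1 was 120 CPM in 1 naive DS mouse, whose 3 companions held 13.9 to 27.1 CPM. Dynlrb2 was 11.2 CPM in 1 acute DS mouse at 1 hr (others 3.54 to 4.78), and Rsph1 was 12.9 CPM in 1 acute NAc mouse at 1 hr (others 9.71 to 10.2). In challenge mice Ccdc153 was 1.25 CPM in 1 Amy mouse at 1 hr (others 2.16 to 2.24) and Tmem212 2.17 CPM in 1 Amy mouse at 4 hr (others 0 to 0.264). Morn1 was 3.03 CPM in 1 LCtx mouse at 2 hr (others 5.03 to 5.35) and 5.15 CPM in 1 NAc mouse at 4 hr (others 3.8 to 3.86), and Dynlrb2 was 3.32 CPM in another NAc mouse at 4 hr (others 1.17 to 1.4).

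The challenge effect differed between structures by the interaction test. It differed between DS and NAc in 7 of 7 members and between DS and Amy in 6 of 7, each time with the higher effect in the DS. Not each of these members was called in the single structures. Morn1 did not pass the filter in the DS (without it, 0.88, adjusted p = 0.254), Rsph1 was not called in the Amy (−0.35, adjusted p = 0.149), and Tmem212, Ak7 and Dynlrb2 did not pass the filter there.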

How the results depend on the processing

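Counts of members called are given against those reported. With no filter on low counts they were 9 over time (4 reported), 24 in the 6 experience comparisons across runs (15), 17 in the 6 structure pairs of challenge mice (8), 7 in LH against Amy (4), 4 in NAc against LCtx (1) and 3 after repeated cocaine in the Amy (2). More members are tested then, except for the 5 added calls over time, which were of members tested with the filter too. DESeq2 gave 1 over time, 17 in the challenge pairs, 4 in NAc against LCtx and 0 after repeated cocaine in the Amy (2 reported). In the DS, all mice of the first runs gave 0 calls for repeated against acute cocaine (6 reported), with Morn1 at −0.20, and cohort exp16 alone gave 5 calls, all turned to lower, with Ccdc153 at −2.48, Tmem212 at −2.03, Foxj1 at −1.02, Dynlrb2 at −0.94, Rsph1 at −0.85 and Morn1, not called, at −0.60. With the mouse as a block the challenge effect, in DS against NAc alone, gave 7 calls (13 reported with the Amy). These fits, the cohort settings, those without 0 hr mice (3 calls in LH against Amy, and the reported counts in the other comparisons of structures) and the comparison of DS and NAc within experiences were chosen after seeing the data. Without the 2 mice farthest from the median, no member repeated in second libraries (1 reported), and without the 0 hr mice 0 did. Where not stated, the cause was not tested.

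The median r between same-numbered mice of different groups was 0.00 to 0.01 in each structure. The number was not free of cohort and run, however. Among repeated DS mice it went with the cohort, and among challenge Amy mice at 1 to 4 hr with the run. A block by replicate number, or leaving out a number, therefore also takes up part of these. With the replicate number as a block, calls were 1 for repeated and 2 for challenge against acute cocaine in the DS (6 reported for each), 1 over time, 14 across runs, 2 for repeated cocaine in the Amy, 0 in the LH, and 34 of 105 pairs (25 reported). Without the mouse as a block, calls between structures were 4 in LH against Amy, 1 in NAc against LCtx, with Morn1 at 0.02, 8 in the challenge pairs, 6 in DS against NAc and 15 within experiences.

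Leaving out 1 mouse or replicate number gave 0 to 5 calls over time, 4 to 6 in the DS for each experience, 1 to 2 for repeated cocaine in the Amy, 0 in the LH, 11 to 16 across runs, 3 to 10 in the challenge pairs, 4 in LH against Amy, 1 in NAc against LCtx, 5 to 6 in DS against NAc, 15 to 17 within experiences (16 reported), 6 to 7 between cohorts, 16 to 27 pairs and 0 to 1 second-library calls. The LH time courses could not be fitted without replicate 1 or 2. RLE factors moved no count of calls. Low counts limit the members in the LH and LCtx. In the LCtx Ccdc153, Tmem212 and Ak7 lie at or under the level of 3 counts in most mice.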
